A study of Mus musculus with 4 samples.

Results

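Genes named for the macrophages that live in the healthy heart were followed after myocardial infarction (MI) in spatial transcriptomics of the mouse heart. They were 8 genes chosen by symbol, Lyve1, Folr2, Mrc1, Cd163, F13a1, Cbr2, Gas6 and Pf4, of 32245 gene symbols in the deposited data. Visium counts mRNA molecules in barcoded spots by their unique molecular identifiers (UMIs), and each spot takes RNA from a small region that can hold several cells. All 8 genes were found and all had at least 100 UMIs in the spots kept. Of them 6 had at least 1000, while Lyve1 had 523 and Cd163 had 292.

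The samples were 4 heart sections, 1 from 1 female ICR mouse of 12 weeks at each of days 1, 4, 7 and 14 after the left anterior descending coronary artery was tied off for good. All 4 mice had the ligation, and the labels name no drug and no altered allele. An uninjured heart was not analysed here. After removal of spots with more than 1% hemoglobin UMIs, 7503 of 9102 spots remained, with 11952107, 14350489, 9292678 and 15713779 UMIs on days 1, 4, 7 and 14. With 1 mouse per day, no test between days was made, and the 95% intervals given for days and single sections cover counting error only. Spots of each section were ranked by the share of their UMIs from Myh6 and Myl2, which encode alpha myosin heavy chain and the ventricular regulatory light chain of cardiomyocytes, and split into quartiles. Quartile 1 is thus poor and quartile 4 rich in Myh6 and Myl2 by construction, and they are called myocyte-poor and myocyte-rich here. The upper limit of the Myh6 and Myl2 share in quartile 1 was 1.08%, 0.652% and 0.706% on days 1, 4 and 7 and 1.94% on day 14, so the day 14 quartile 1 reached into spots richer in myocyte RNA. The cardiomyocyte list of 5 other genes was summed in counts per 1000000 UMIs (CPM). It had 18131, 7793, 3652 and 20814 in quartile 1 on days 1, 4, 7 and 14, and 25564 to 28078 in quartile 4. Quartile 1 of days 1 and 14 thus still held much myocyte RNA.

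Macrophages that settle in the heart before birth keep their numbers largely by local division, take up debris and sit along vessels, while monocytes that enter after an infarct give rise to other macrophages. The resident cells are commonly recognised by uptake receptors (LYVE1, FOLR2, CD206 and CD163), by secreted proteins (GAS6 and PF4) and by enzymes such as factor XIII A. Cd68 encodes a lysosomal glycoprotein of macrophages in general, and Csf1r encodes the receptor for the macrophage growth factor CSF1, so UMIs per Cd68 or per Csf1r UMI set each gene against the macrophage RNA of the same spots. Several of the 8 genes are also read in other cells, Lyve1 and Mrc1 in lymphatic endothelium, Pf4 and F13a1 in platelets and megakaryocytes, and Gas6 in fibroblasts and vessel walls. In summed spots, fewer cells of a type and less RNA per cell cannot be told apart. Nor can RNA of resident macrophages be told there from that of macrophages formed from monocytes.

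The 8 genes were not all called alike. Across the 4 sections, Pf4, Mrc1, F13a1 and Gas6 were higher in the myocyte-poor quartile 1 than in quartile 4 (edgeR quasi-likelihood test with section as a block), while Cd163, Lyve1, Folr2 and Cbr2 did not pass the test. Thus 4 of 8 were called higher and 0 lower, beside 27.5% of 11619 tested genes called higher and 25.0% called lower. Their median log2 fold change was 0.48, against 0.07 for all tested genes and 2.35 for a list of 15 pan-macrophage genes, all 15 of which were called higher. The general macrophage gene Cd68 was 5.83-fold higher in quartile 1 (log2 2.54 ± 0.28 SE, adjusted p = 1.1e-05), more than any of the 8 genes. Cd163 and Lyve1 had an SE of 0.43 each, against 0.16 for Folr2 and 0.19 for Cbr2. Missing the threshold thus does not show that Cd163 and Lyve1 differed from the 4 genes called. Differences between genes were not tested.

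**Figure D1:**
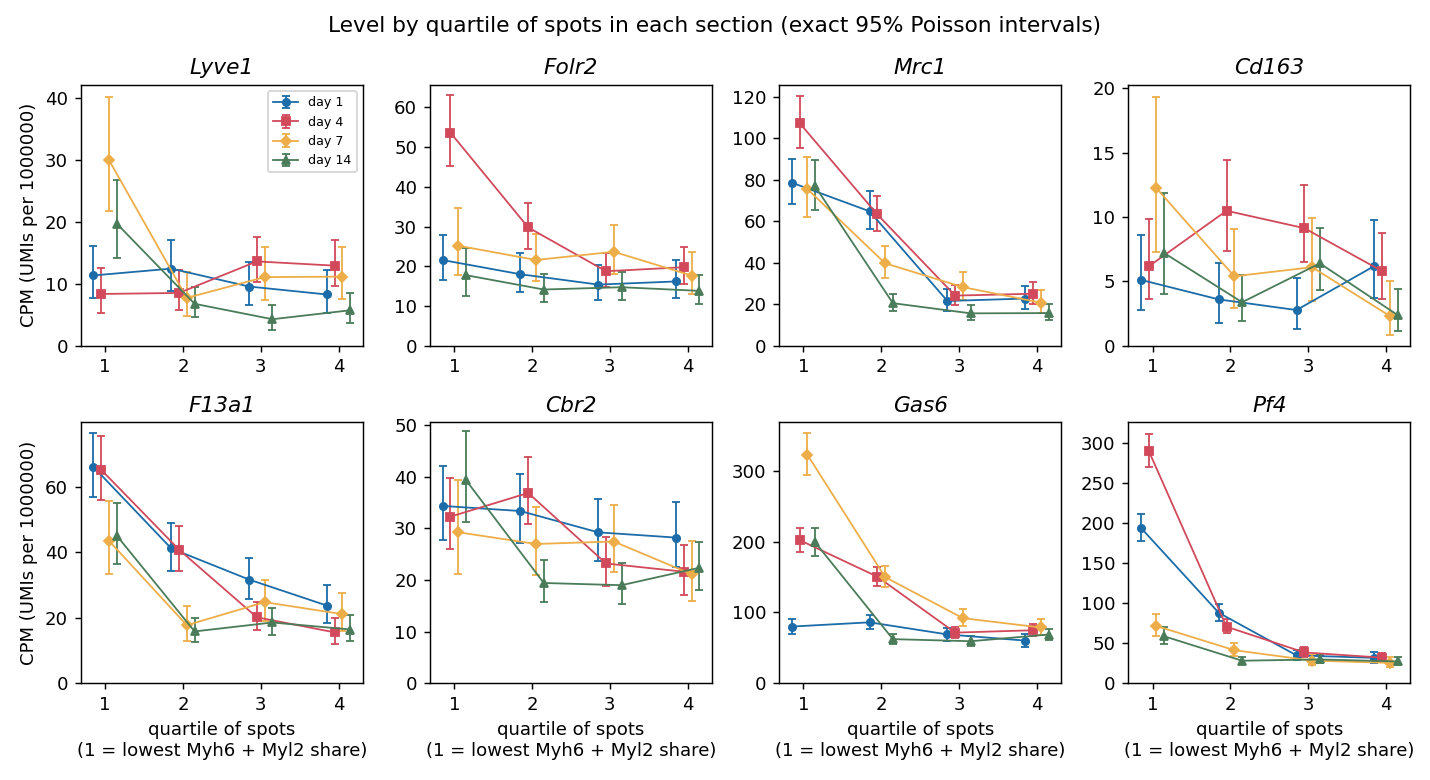
CPM of each of the 8 genes (y axis) in quartiles 1 to 4 of the spots of each section (x axis, 1 is the lowest Myh6 and Myl2 share), with 1 line per day and exact 95% Poisson intervals as bars. Pf4 and Mrc1 stood highest in quartile 1 in all 4 sections, whereas Cbr2 and Cd163 had overlapping intervals across most quartiles.

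The fit scales each library by the trimmed mean of M values (TMM), and this choice bears on the sizes. Spots with little myocyte RNA give a larger share of their UMIs to other genes, and with total UMIs as the scale the median log2 fold change of all tested genes was 0.71, a shift of 0.64. The CPM values and their ratios in single sections below carry such a shift, and the fitted fold changes do not. Its size differed by section. TMM factors were 1.29, 1.62, 1.57 and 1.05 in quartile 1 on days 1, 4, 7 and 14. In quartile 4 they were 0.916, 0.836, 0.946 and 0.824. Ratios of different days thus carry different shifts, and a CPM ratio above 1 need not lie above 1 on the fitted scale. With total UMIs 6761 genes (58.2%) were called higher and 1238 (10.7%) lower, in place of 3201 and 2902.

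Among the uptake receptors, Mrc1 encodes the mannose receptor CD206 (chromosome 2, 14229392 to 14332057, plus strand, GRCm38). It had 78.6, 107, 75.5 and 76.8 CPM in quartile 1 on days 1, 4, 7 and 14. In quartile 4 it had 22.7, 25.0, 20.7 and 15.7. All 4 quartile 1 values lay above all 4 quartile 4 values, and the ratio within a section ran from 3.46 on day 1 to 4.89 on day 14. The fitted difference of Mrc1 was 2.63-fold (log2 1.40 ± 0.22 SE, adjusted p = 8.9e-05). Mrc1 was also higher in quartile 2 than in quartile 4 (log2 0.92 ± 0.22 SE, adjusted p = 0.031), the 1 call among the 8 genes there, beside 3.18% of tested genes called higher and 0.379% called lower.

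Cd163 encodes the scavenger receptor for hemoglobin bound to haptoglobin (chromosome 6, 124304656 to 124330527, plus strand). Its levels rested on few molecules, from 6 to 39 UMIs per quartile of a section. In quartile 1 it had 5.12, 6.16, 12.2 and 7.20 CPM on days 1, 4, 7 and 14, and in quartile 4 it had 6.19, 5.79, 2.30 and 2.38. The ratio of Cd163 was 0.826 (95% interval 0.380 to 1.76) on day 1, 5.31 (2.02 to 16.4) on day 7 and 3.03 (1.27 to 7.53) on day 14. The fit did not call it (log2 0.18 ± 0.43 SE, adjusted p = 0.75).

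Lyve1 encodes a hyaluronan receptor (chromosome 7, 110850607 to 110863239, minus strand). In quartile 1 it had 11.3, 8.34, 29.9 and 19.7 CPM on days 1, 4, 7 and 14, and in quartile 4 it had 8.26, 12.9, 11.1 and 5.71. The day 4 section alone had less Lyve1 in quartile 1 than in quartile 4, at a ratio of 0.646 (0.376 to 1.08), and this interval did not reach those of day 7 (1.64 to 4.45) and day 14 (2.03 to 5.96). Over the 4 sections the difference did not pass the test (log2 0.17 ± 0.43 SE, adjusted p = 0.76).

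Folr2 encodes folate receptor beta (chromosome 7, 101839988 to 101857194, minus strand). Its quartile 1 levels were 21.6, 53.7, 25.2 and 17.8 CPM, and its quartile 4 levels were 16.2, 19.8, 17.7 and 13.8. In CPM the day 4 quartile 1 stood apart, with a ratio of 2.72 (2.04 to 3.64), while the intervals of the other 3 sections included 1. The TMM factors of quartiles 1 and 4 were also furthest apart on day 4. In the lowest decile of spots (below), however, Folr2 had 79.3 CPM on day 4 and 72.0 on day 14. The fitted log2 fold change was 0.10 ± 0.16 SE (adjusted p = 0.62). With total UMIs in place of TMM it was 0.75 and passed the test (adjusted p = 0.0043), close to the 0.71 of the median gene on that scale.

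Among the secreted proteins, Pf4 encodes the chemokine CXCL4 (chromosome 5, 90772435 to 90773383, plus strand), known from platelet granules and also made by macrophages. In quartile 1 it had 194, 290, 71.4 and 58.5 CPM on days 1, 4, 7 and 14, and in quartile 4 it had 31.6, 31.9, 25.3 and 27.1. The quartile 1 levels of days 1 and 4 were thus far above those of days 7 and 14, while quartile 4 varied little. Quartile 1 of day 14, however, reached into spots richer in myocyte RNA. In the lowest decile of spots (below) Pf4 had 226 (176 to 286) CPM on day 14, near the 240 (210 to 274) of day 1. The ratio within a section was 6.13 (4.91 to 7.74) on day 1 and 9.11 (7.52 to 11.1) on day 4, against 2.82 (2.05 to 3.89) on day 7 and 2.16 (1.66 to 2.81) on day 14. The fitted difference of Pf4 was the largest of the 8 genes at 2.90-fold (log2 1.54 ± 0.25 SE, adjusted p = 0.00014).

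Gas6 encodes a ligand that bridges apoptotic cells to the TAM receptors AXL, MERTK and TYRO3 (chromosome 8, 13465374 to 13494490, minus strand). Its quartile 1 levels were 80.0, 202, 323 and 199 CPM on days 1, 4, 7 and 14, and its quartile 4 levels were 60.2, 74.8, 78.7 and 68.8. Day 1 had the smallest ratio, 1.33 (1.08 to 1.63), and day 7 the largest, 4.10 (3.48 to 4.86). The fit gave 1.73-fold (log2 0.79 ± 0.24 SE, adjusted p = 0.012). That call was lost without the day 7 section (log2 0.60, adjusted p = 0.12) and with quartiles 2 and 3 left out of the fit (log2 0.76, adjusted p = 0.065). Beside it, the smooth muscle list of 4 genes summed to 229 to 1454 CPM in quartile 1 and 59.5 to 129 in quartile 4. Called higher were 3 of 4 genes, all but Myh11 (log2 0.29, adjusted p = 0.28). Acta2, whose protein the authors also used to mark myofibroblasts, had 7156 UMIs in all, against 840 for Myh11. Of 5 fibroblast genes 1 was called higher, Pdgfra (log2 0.87), and 2 lower, Gsn (-2.19) and Dpep1 (-1.12). The list summed to 881 to 2727 CPM in quartile 1 and 2060 to 2804 in quartile 4. These sums were mostly Gsn, with 75350 UMIs in all against 1675 for Pdgfra. The part of either cell type in the Gas6 result was not tested.

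Among the enzymes, F13a1 encodes the A subunit of coagulation factor XIII, a transglutaminase that crosslinks fibrin (chromosome 13, 36867178 to 37050244, minus strand). In quartile 1 it had 66.1, 65.3, 43.5 and 45.1 CPM on days 1, 4, 7 and 14, and in quartile 4 it had 23.7, 15.5, 21.1 and 16.4. All quartile 1 values lay above all quartile 4 values, with ratios from 2.06 on day 7 to 4.20 on day 4. The fitted difference was 1.85-fold (log2 0.88 ± 0.21 SE, adjusted p = 0.0023).

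Cbr2 encodes carbonyl reductase 2 (chromosome 11, 120729489 to 120732114, minus strand). It had 34.3, 32.3, 29.2 and 39.3 CPM in quartile 1 and 28.2, 21.6, 21.1 and 22.4 in quartile 4. Quartile 1 was the higher in each section, at ratios of 1.22 to 1.76, yet relative to the other genes the fit gave a log2 fold change of -0.07 ± 0.19 SE (adjusted p = 0.78). With total UMIs as the scale the direction turned, to 0.54 (adjusted p = 0.017), which is less than the 0.71 of the median gene.

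Quartiles 3 and 4 could not be separated. In the edgeR fit 0 of the 8 genes and 0% of tested genes were called between them in either direction, 168 genes had an unadjusted p under 0.05, and the lowest unadjusted p of the 8 genes was 0.12, for F13a1.

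**Figure D2:**
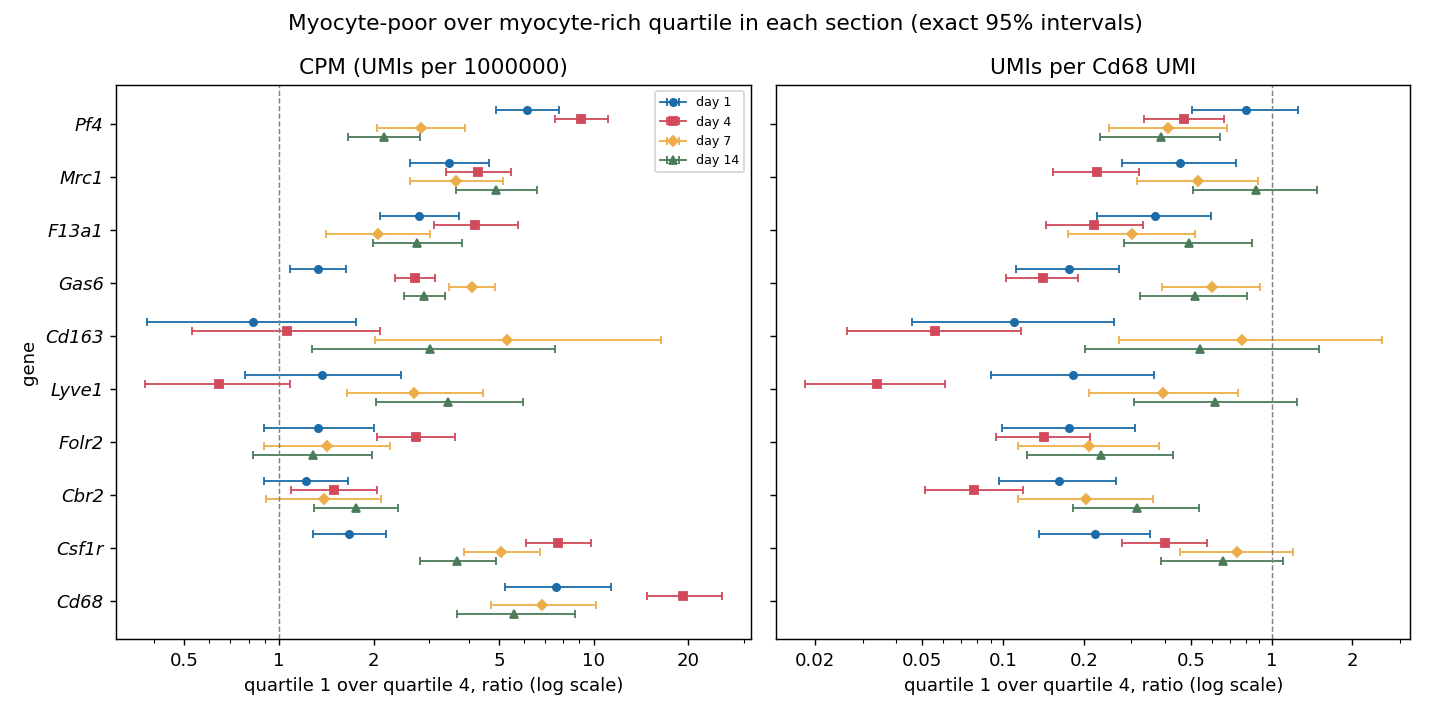
Ratio of quartile 1 to quartile 4 for each gene (y axis) in CPM (left, log x axis) and in UMIs per Cd68 UMI (right, log x axis), with 1 point per section and exact 95% intervals as bars. Cd68 reached 19.2 on day 4, above all 8 genes on the left, and all 8 genes lay below 1 on the right in all 4 sections, beside 89.3% of tested genes.

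Reference promoters of the genes were searched for letters read by 2 kinds of macrophage factor, PU.1 and MAF, and are shown as the sequence context of the genes. The windows are the RefSeq promoters of GRCm38.p6, 300 bases from 250 before a start to 50 after it, and 7 of the 8 genes had at least 1 window, 9 windows in all. The core AGGAAGT of PU.1, the factor that macrophages need to form, was searched on both strands with its reverse complement ACTTCCT. It was found in 4 of the 9 windows, 1 each of Mrc1, Pf4, F13a1 and Folr2, while 9.35% of all 32851 promoter windows hold it. The MAF half-site TGCTGAC was found in 1 of the 9 windows, of Cbr2, against 4.67% of all windows. The 4 windows with the PU.1 core are shown in lower case, 5′ to 3′ on the strand of the gene, with the core or its reverse complement in capitals, at chr2:14229164-14229463 (plus) for Mrc1, chr5:90772185-90772484 (plus) for Pf4, chr13:37049164-37049463 (minus) for F13a1 and chr7:101857141-101857440 (minus) for Folr2.
Mrc1: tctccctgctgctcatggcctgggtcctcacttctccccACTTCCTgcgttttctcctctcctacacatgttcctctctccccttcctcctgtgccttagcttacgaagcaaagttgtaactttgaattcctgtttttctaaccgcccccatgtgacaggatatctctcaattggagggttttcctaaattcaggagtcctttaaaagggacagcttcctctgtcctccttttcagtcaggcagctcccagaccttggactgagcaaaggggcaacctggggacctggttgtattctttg
Pf4: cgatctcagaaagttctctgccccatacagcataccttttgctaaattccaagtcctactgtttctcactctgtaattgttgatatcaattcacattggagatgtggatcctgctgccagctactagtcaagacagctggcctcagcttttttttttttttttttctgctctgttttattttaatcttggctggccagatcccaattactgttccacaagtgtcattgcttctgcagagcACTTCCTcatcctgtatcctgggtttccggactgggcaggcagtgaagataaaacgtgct
F13a1: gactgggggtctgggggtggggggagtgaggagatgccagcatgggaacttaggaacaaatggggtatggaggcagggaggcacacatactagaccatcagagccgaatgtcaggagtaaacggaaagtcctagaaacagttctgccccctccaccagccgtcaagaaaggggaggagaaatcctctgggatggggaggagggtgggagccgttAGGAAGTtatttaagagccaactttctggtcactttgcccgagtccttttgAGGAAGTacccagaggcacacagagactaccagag
Folr2: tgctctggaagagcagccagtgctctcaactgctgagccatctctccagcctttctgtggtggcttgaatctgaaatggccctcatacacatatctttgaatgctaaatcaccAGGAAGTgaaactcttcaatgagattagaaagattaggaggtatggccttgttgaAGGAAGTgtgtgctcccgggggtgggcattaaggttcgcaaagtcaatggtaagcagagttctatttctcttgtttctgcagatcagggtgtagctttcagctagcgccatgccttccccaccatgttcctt
F13a1 and Folr2 each held the core 2 times and Mrc1 and Pf4 1 time. F13a1 and Folr2 each had another window without it. These matches describe letters in a window and were not tied to any binding measured here. Which factor, if any, reads them in these genes was not tested.

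Over whole sections, the genes changed less between days than Cd68 did. Cd68 had 38.3, 78.5, 28.6 and 12.5 CPM on days 1, 4, 7 and 14, a 6.30-fold (5.41 to 7.37) difference between days 4 and 14. Csf1r had 34.8, 68.4, 61.1 and 27.6. Both macrophage markers were highest on day 4. The sections also differed in myocyte RNA, with 23772, 19703, 21911 and 26264 CPM of the cardiomyocyte list on days 1, 4, 7 and 14. With 1 section per day, time and the tissue a section held cannot be told apart in whole-section levels. In the lowest decile of spots (below) Cd68 had 485 CPM on day 4 and 183 on day 14.

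Mrc1 had 45.9, 49.96, 36.8 and 25.2 CPM on days 1, 4, 7 and 14. Folr2 had 17.7, 28.4, 21.6 and 14.7. Cd163 had 4.35, 8.01, 5.81 and 4.52. All 3 of these receptor genes had their highest level on day 4. The intervals of days 1 and 4, however, overlapped for Mrc1 (42.2 to 49.9 and 46.4 to 53.8). Those of days 4 and 7 overlapped for Cd163 (6.62 to 9.62 and 4.37 to 7.58). Lyve1, at 10.4, 11.1, 13.1 and 7.45, was highest on day 7, with overlapping intervals on days 1, 4 and 7.

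Pf4 had 84.1, 93.0, 37.9 and 32.3 CPM, and Gas6 had 73.7, 117, 141 and 81.3. The RNAs of the 2 secreted proteins were thus highest on different days. Pf4 was 2.46-fold (2.18 to 2.77) lower on day 7 than on day 4 and was the 1 gene of the 8 at least 2-fold lower in that comparison, beside 1.28% of tested genes. F13a1 had 40.1, 32.7, 24.8 and 20.7 CPM and Cbr2 had 31.2, 27.9, 25.8 and 22.7. The RNAs of both enzymes were thus highest on day 1 and lowest on day 14. For Cbr2 some of these steps lay within counting error, since the ratio of day 4 to day 1 was 0.893 (0.774 to 1.03) and that of day 14 to day 7 was 0.880 (0.745 to 1.04). Between days 14 and 4, again Pf4 alone of the 8 was at least 2-fold lower (2.88-fold, 2.60 to 3.19), beside 14.1% of tested genes, and Mrc1 was 1.98-fold lower (1.75 to 2.25). The median ratio of day 14 to day 4 was 0.60 for the 8 genes, 0.80 for all tested genes and 0.26 for the pan-macrophage list.

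Set against Cd68, all 8 genes were lowest on day 4 and highest on day 14, beside 85.7% of tested genes. Mrc1 had 1.20, 0.636, 1.29 and 2.02 UMIs per Cd68 UMI on days 1, 4, 7 and 14. Folr2 had 0.461, 0.362, 0.756 and 1.18. Cd163 had 0.114, 0.102, 0.203 and 0.362. The ratio of day 4 to day 1 on this scale was 0.531 (0.453 to 0.622) for Mrc1 and 0.786 (0.642 to 0.964) for Folr2, while for Cd163 it was 0.899 (0.630 to 1.3), an interval that included 1.
Lyve1 had 0.271, 0.142, 0.459 and 0.597 UMIs per Cd68 UMI. Gas6 had 1.92, 1.49, 4.92 and 6.52. Pf4 had 2.19, 1.18, 1.32 and 2.59. Gas6 had gained most of its increase by day 7, whereas Pf4 was near its day 4 value then and its day 14 value was 1.18 times (0.965 to 1.45) that of day 1.
F13a1 had 1.05, 0.416, 0.865 and 1.66 UMIs per Cd68 UMI. Cbr2 had 0.814, 0.355, 0.902 and 1.82. These 2 genes were at least 2-fold lower on day 4 than on day 1, beside 49.8% of tested genes. From day 4 to day 14 all 8 genes were at least 2-fold higher per Cd68 UMI, from 2.19-fold (1.82 to 2.64) for Pf4 to 5.13-fold (4.14 to 6.36) for Cbr2. That count stood beside 94.8% of tested genes, and the median ratio of 3.77 for the 8 genes lay under the 5.01 of all tested genes.

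**Figure D3:**
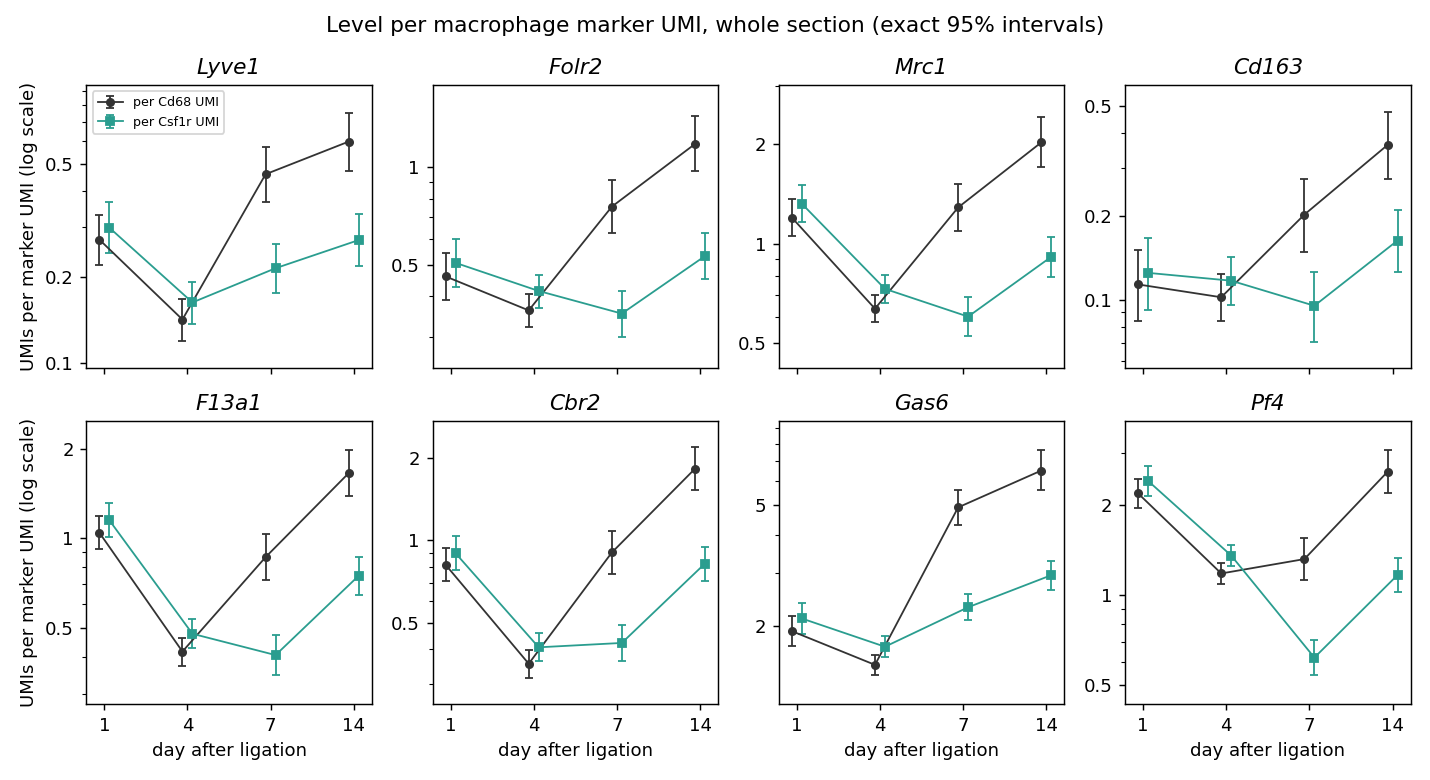
UMIs of each gene per Cd68 UMI (black circles) and per Csf1r UMI (green squares) in whole sections (log y axis) by day after ligation (x axis), with exact 95% intervals as bars. Per Cd68 UMI all 8 genes were lowest on day 4 and highest on day 14. Per Csf1r UMI Mrc1, F13a1, Folr2, Cd163 and Pf4 (0.620) were lowest on day 7.

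The denominator changed the size of this pattern and its order of days. Per Csf1r UMI the ratio of day 14 to day 4 ran from 0.861 (0.737 to 1.01) for Pf4 to 2.02 (1.68 to 2.43) for Cbr2, and it was above 1 for 7 of the 8 genes, beside 91.4% of tested genes. The median of all tested genes on this scale was 1.97, above 7 of the 8 genes. F13a1 had 1.15, 0.478, 0.405 and 0.749 UMIs per Csf1r UMI on days 1, 4, 7 and 14. Mrc1 had 1.32, 0.730, 0.602 and 0.912. Both had more UMIs per Csf1r UMI on day 1 than on any later day, as Pf4 did (2.42, 1.36, 0.620 and 1.17). So did Lyve1 (0.298, against 0.270 on day 14) and Cbr2 (0.897, against 0.823), with overlapping intervals on days 1 and 14. Mrc1, F13a1, Pf4, Folr2 (0.354) and Cd163 (0.0951) were lowest on day 7, not on day 4. Of these all but Pf4 had overlapping intervals on days 4 and 7. Gas6 was highest on day 14 on this scale, at 2.94 (2.64 to 3.29) against 2.12 (1.88 to 2.39) on day 1.

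The same division was applied within sections. Per Cd68 UMI all 8 genes were lower in quartile 1 than in quartile 4 (edgeR with Cd68 UMIs as the offset), beside 90.9% of tested genes called lower and 1.18% called higher. Mrc1 (log2 -1.06 ± 0.39 SE, adjusted p = 0.0070) and Pf4 (log2 -0.95 ± 0.39 SE, adjusted p = 0.017) were the closest to Cd68. Cbr2 (log2 -2.52 ± 0.39 SE, adjusted p = 4.6e-10) and Folr2 (log2 -2.44 ± 0.39 SE, adjusted p = 1.2e-09) were the farthest, near the median of all tested genes, which was -2.41. Lyve1 was at -2.16, Cd163 at -2.24, Gas6 at -1.71 and F13a1 at -1.56, each past the threshold.
On day 4, for example, Lyve1 had 0.0279 UMIs per Cd68 UMI in quartile 1 and 0.831 in quartile 4. Pf4 had 0.971 and 2.05. With Csf1r as the denominator 4 of the 8 genes were called lower, beside 72.1% of tested genes called lower and 4.67% called higher, and the median of all tested genes was -1.29. The 4 called were Lyve1 (-1.17), Folr2 (-1.29), Cd163 (-1.08) and Cbr2 (-1.44), near that median, while Mrc1 (-0.01), F13a1 (-0.50), Gas6 (-0.63) and Pf4 (0.14) did not pass the test. The call of Pf4 per Cd68 UMI was also lost without day 4 (-0.90), day 7 (-0.86) or day 14 (-0.82), and with the pan-macrophage list as the denominator (-0.70), and that of Mrc1 without day 4 (-0.74). Neither was called without the section block (Mrc1 -0.89, Pf4 -0.93).

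Because quartile 1 of day 14 reached into richer myocardium, spots were also split into deciles, a choice made after seeing the data. The lowest decile of day 14 held 1.94% of the section's UMIs, with a median of 1140 per spot, and on days 1, 4 and 7 it held 7.30% to 7.77%. On day 14 the lowest decile had 324 (263 to 395) CPM of Mrc1 and the next decile had 48.4. Gas6 had 789 (693 to 895) and 142. Cbr2, which was not called over quartiles, had 128 (90.8 to 175) and 40.3. Cd68 (183 and 25.3) and Csf1r (278 and 53.0) differed in the same way, and 46.5% of tested genes were at least 2-fold higher in CPM in the lowest decile than in the next. High CPM here stood on a small total, since the decile held 9.52% of the Folr2 UMIs, 10.9% of those of Cbr2, 13.6% of those of Pf4 and 25.0% of those of Mrc1 in the section. The lowest decile of day 14 had more CPM than that of the other days for 6 of the 8 genes, all but Pf4 and Folr2, beside 33.7% of tested genes. Pf4 had 240, 451, 79.6 and 226 in the lowest decile on days 1, 4, 7 and 14, and Folr2 had 19.4, 79.3, 17.1 and 72.0.
On day 7 Lyve1 had 9.95 (4.00 to 20.5) CPM in the lowest decile and 33.0 and 38.3 in the second and the third. Its day 7 excess in quartile 1 thus came from the deciles ranked after the myocyte-poorest one, which says nothing of their place in the tissue. Between the lowest and the highest decile, Pf4 (log2 2.00), Mrc1 (1.63), F13a1 (1.44) and Gas6 (1.09) were again called higher by edgeR and the other 4 genes were not, beside 26.1% of tested genes called higher and 24.4% called lower.

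**Figure D4:**
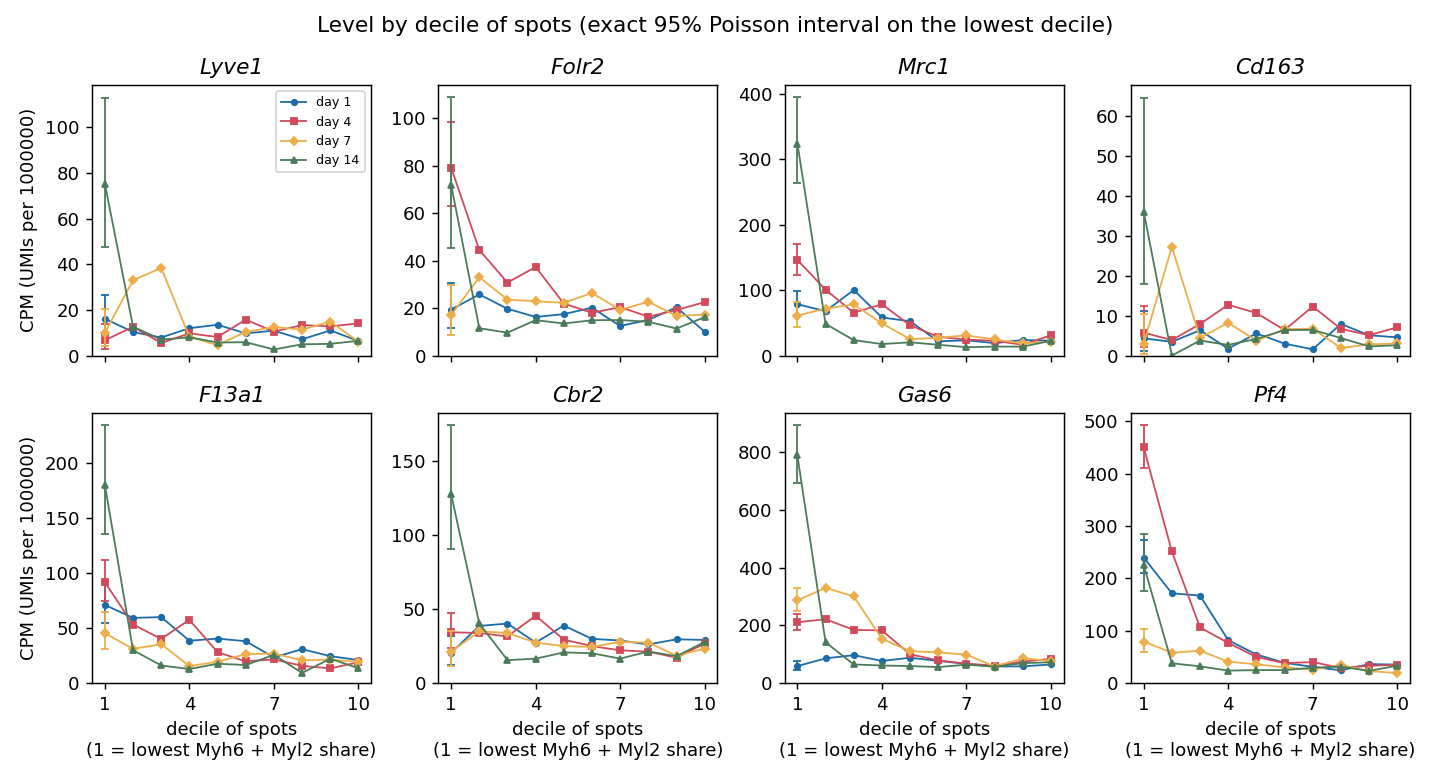
CPM of each gene (y axis) by decile of the spots of each section (x axis, 1 is the lowest Myh6 and Myl2 share), with 1 line per day and the exact 95% Poisson interval drawn on the lowest decile. The day 14 line stood at 789 for Gas6 and 324 for Mrc1 in the lowest decile and at 64.9 and 23.6 in the third.

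Markers of other cells that read these genes were counted beside them. The lymphatic endothelial list (6 genes, none at 0 in any quartile) summed to 106 to 377 CPM in quartile 1 and 79.7 to 96.0 in quartile 4. Of its genes Pdpn, which activated fibroblasts and mesothelium also make, was called higher (log2 3.43) and Prox1, also read in cardiomyocytes, lower (-1.42). In spots with a UMI of the list Lyve1 had 12.9, 15.1, 18.6 and 10.4 CPM on days 1, 4, 7 and 14, and in spots without one it had 8.70, 8.83, 10.1 and 6.17. Since Pdpn and Prox1 count toward the list, spots with a UMI of it need not hold lymphatic vessels. In CPM Lyve1 was the higher in such spots in all 4 sections, with overlapping intervals on days 1 and 14. So was Mrc1, at 59.7, 56.5, 42.1 and 31.1 against 36.6, 46.1, 33.9 and 22.7, with overlapping intervals on days 4 and 7. Per Cd68 UMI neither gene was the higher in all 4 sections. Mrc1 had 1.13, 0.536, 1.47 and 1.78 UMIs per Cd68 UMI beside a marker and 1.28, 0.735, 1.19 and 2.19 elsewhere. It was thus the lower on days 1, 4 and 14, with overlapping intervals on days 1 and 14. Lyve1 had 0.244, 0.143, 0.649 and 0.598 beside a marker, and its intervals with and without a marker overlapped on all 4 days. Without marker spots Lyve1 per Cd68 UMI was 0.304, 0.141, 0.355 and 0.596, still lowest on day 4 and highest on day 14.

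The platelet list was sparse, with 46 to 116 UMIs per section over 5 genes. Gp9 was at 0 on day 14, and Ppbp had 40, 17, 9 and 14 UMIs. The list summed to 7.68 to 17.7 CPM in quartile 1 and 2.06 to 3.95 in quartile 4, and Itga2b, its 1 gene with 100 UMIs, was called higher (log2 1.19, adjusted p = 0.044). In the 45 to 112 spots per section with a platelet UMI, Pf4 had 203, 141, 87.6 and 57.1 CPM, against 79.3, 89.4, 36.4 and 31.9 elsewhere. F13a1 had 103, 44.9, 45.7 and 43.7 there, against 37.6, 31.7, 24.1 and 20.2. Per Cd68 UMI Pf4 had 3.1, 1.22, 1.92 and 1.7 there, and F13a1 had 1.57, 0.390, 1.0 and 1.3. Without the spots with a platelet UMI, Pf4 per Cd68 UMI was 2.13, 1.18, 1.3 and 2.64 and F13a1 was 1.01, 0.419, 0.858 and 1.68. The intervals per Cd68 UMI with and without a platelet UMI overlapped on all 4 days for both genes. The order of days was that of all spots, but with so few spots left out it could hardly change. The part of platelets in these levels was not tested.

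Other genes of resident macrophages also differed among themselves. Of a list of 16, 14 had enough UMIs, of which 6 were called higher in quartile 1, 2 lower and 6 neither, with a median log2 fold change of 0.92. Igf1 (1.78), a growth factor, and Siglec1 (1.76), the sialic acid receptor CD169, were the highest, and Mgl2 (-1.14), a galactose lectin, was called lower. Cd209f had the lowest value (-1.35, adjusted p = 0.071). The recruited monocyte list was called higher in 6 of 6 tested genes, with a median of 3.60, from Itgal (1.63) to Chil3 (5.58). Of the lipid-handling macrophage list 6 of 8 were called higher, led by Spp1 (6.16), and Lpl, which cardiomyocytes also make, was called lower (-2.21).
Around Gas6, all 5 genes of the TAM list were called higher, namely Gas6 itself, Pros1, the other ligand, and the receptors Tyro3 (2.30), Mertk (1.67) and Axl (0.65). In the CSF1 axis Csf1r (1.33) and its ligand Csf1 (0.98) were called higher and Il34 (0.34, adjusted p = 0.51) was not. Around Cd163, Hp (4.71), the haptoglobin whose complex with hemoglobin CD163 binds, and Hmox1 (3.40), heme oxygenase, were called higher, while Cd163 and the iron exporter Slc40a1 (-0.01) were not. Among the genes tested of the remaining lists, 3 of 3 neutrophil, 1 of 1 dendritic cell (Itgax) and 2 of 3 mesothelial genes were called higher. Called lower were 2 of 5 blood endothelial and 5 of 5 cardiomyocyte genes, and neither of 2 adipocyte genes was called either way. The other dendritic cell genes, Cd209a, Flt3, Xcr1 and Clec9a, had too few UMIs to test, so Itgax does not stand for that list.

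Over the 16 section-by-quartile libraries the likeness between pairs of the genes varied. The highest Pearson r of log2 levels were those of F13a1 with Pf4 (0.89), Mrc1 with F13a1 (0.88) and Mrc1 with Pf4 (0.88). Lyve1 had r = 0.21 with Folr2 and 0.24 with Pf4. Among the 8 genes Cd163 had at most 0.58, with Gas6, and it had 0.60 with Csf1r. Both had few UMIs, 20 to 58 per library for Lyve1 and 6 to 39 for Cd163, and counting error lowers r. Of the others among the 8, the lowest r was that of Folr2 with Cbr2 (0.49). Mrc1 and Pf4 followed Cd68 (both 0.94), and Gas6 followed Csf1r (0.92). Among 4763 genes of at least 1000 UMIs, the 10 most like the mean z-score of the 8 were Fcgr3, Cd14, Fcgr2b, Igsf8, Laptm5, Cd52, Tbl1xr1, Fcer1g, Stab1 and Tyrobp, with r from 0.947 to 0.959. These are descriptions over libraries that share a mouse in sets of 4 and share the Myh6 and Myl2 ranking.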

How the data were processed

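Visium libraries of 4 mouse heart sections were used, 1 per day after MI. The authors made the deposited values with Space Ranger 1.3.0 on mm10 (GRCm38), and the labels also name Seurat 4.1.1. The deposited values are raw UMI counts per gene and spot under tissue, without normalization. Depth was 9292678 to 15713779 UMIs per section in the spots kept.

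Spots with over 1% of UMIs in 8 hemoglobin genes were removed. The manual removal of edge spots that the methods describe was not repeated, since spot positions were not used here. Rows that share a symbol were summed. Counts were summed per section and quartile of spots (16 libraries). edgeR 4.0.16 in R 4.3.3 fitted genes of at least 100 UMIs by quasi-likelihood with section as a block and TMM scaling, or with Cd68 UMIs as the offset, with Benjamini-Hochberg adjustment of p over all genes tested, with Myh6 and Myl2 left out of the counts of calls at an adjusted p of 0.05. SE is the log2 fold change over the square root of F. P-values set a difference against the spread between 4 sections of different days, which edgeR draws toward the spread of all genes. With the Cd68 offset, Cd68 UMIs (31 to 59 in quartile 4 of a section) entered as known, and their counting error was shared by all genes. The small p-values of that fit thus do not measure the spread of a single gene between sections. The fits with TMM scaling and with the Cd68 offset were tested on simulated data with known changes. There Cd68 kept the same share of UMIs in all libraries but for counting error. Its differences between quartiles were therefore no part of that test. Levels (CPM) are UMIs per 1000000 with exact Poisson 95% intervals, and ratios have exact conditional (Clopper-Pearson) intervals, from scipy 1.17.1. Spots are not replicates, so the Mann-Whitney test over spots was not used.

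The genes named are the 8 genes, up to 4 of each list (the 2 highest and 2 lowest log2 fold changes) and the 10 genes most like the 8, by Pearson r of log2(CPM + 1). The 8 genes and all lists were chosen with earlier results of these data known. Gene coordinates are those of GENCODE vM21. Alternatives were DESeq2 1.42.0, minimums of 1000 or 10 UMIs, no hemoglobin filter, spots under 1000 UMIs left out, ranking on Tnni3 and Mb, no section block, quartiles 1 and 4 alone, each section left out, total UMIs in place of TMM, other denominators, marker spots left out and, added after seeing the data, deciles of spots.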

Additional observations from a re-analysis of the deposited data

Results flagged for a closer look

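Lyve1 and Cd163 had ratios of quartile 1 to quartile 4 that pointed in opposite directions in different sections, in CPM. For Lyve1 the ratios of days 1, 4, 7 and 14 were 1.37, 0.646, 2.69 and 3.45. For Cd163 they were 0.826, 1.06, 5.31 and 3.03. The difference between sections was not tested, since each day has 1 mouse, and the ratios below 1 had intervals that included 1. These ratios are not scaled by TMM. Genes above 1 in CPM in all sections, such as Cbr2 (1.22 to 1.76), may also lie on both sides of 1 on the fitted scale. Directions in single sections were not counted on that scale, so the flag is not particular to Lyve1 and Cd163.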

How the results depend on the processing

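Days could not be paired, since each has 1 section. The quartiles were paired within sections, and without that section block no call among the 8 genes changed in the TMM-scaled fit, while the calls of Mrc1 and Pf4 per Cd68 UMI were lost. Pf4, Mrc1 and F13a1 were called higher in quartile 1 under all 14 alternatives of the comparison with quartile 4, DESeq2 included. Gas6 was above 0 under all 14 (lowest log2 0.60) and was called under 12 of them. The 4 genes that were not called lay on both sides of 0 among the alternatives. Their highest values were 0.82 (Lyve1), 0.75 (Folr2), 0.83 (Cd163) and 0.54 (Cbr2). Folr2 and Cbr2 passed the test with total UMIs. Cbr2 was at 0.15 with a minimum of 1000 UMIs, 0.12 without the hemoglobin filter and 0.54 with total UMIs, and Cd163 was at -0.15 with spots ranked on Tnni3 and Mb. Without 1 section Cbr2 ran from -0.28 (day 14 left out) to 0.030 (day 4), Cd163 from -0.22 (day 7) to 0.58 (day 4), Lyve1 from -0.27 (day 14) to 0.73 (day 4) and Folr2 from -0.088 (day 4) to 0.18 (day 7), none of them called. The cause of these reversals was not tested.

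Genes called higher and lower numbered 1679 and 1545 with a minimum of 1000 UMIs, where fewer genes were tested and Lyve1 and Cd163 fell under the minimum, and 6761 and 1238 with total UMIs, and 1867 were lower with quartiles 1 and 4 alone. Without 1 section, 2217 to 3104 genes were higher and 2046 to 2846 lower, and 3 to 4 of the 8 genes higher. Per Cd68 UMI, 42 genes were higher and 4533 lower with the minimum of 1000 UMIs, 90 were higher without the section block, and 82 (day 7 left out) to 134 were higher and 10073 to 10525 lower without 1 section, with 6 to 8 of the 8 genes lower. With Csf1r as the denominator 543 genes were higher and 8378 lower, 4 of the 8 genes were lower and Pf4 turned to 0.14. The summed CPM of the 8 genes on day 14 were 0.567 times those on day 4, 0.601 without the hemoglobin filter and 0.693 with TMM-scaled totals. Per Cd68 UMI that ratio was 3.57, against 1.41 per Csf1r UMI and 2.31 per UMI of the pan-macrophage list, in which Lyz2 had 52.95% of the UMIs. Depth limits Cd163 and Lyve1 most, and 1 mouse per day leaves the spread between animals unknown.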
